A study of Mus musculus with 14 samples.

Results

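Trimethylation of lysine 27 on histone H3 (H3K27me3) is deposited by Polycomb repressive complex 2 (PRC2) and marks repressed chromatin, often as broad domains over silent developmental genes. Once placed, the mark can be bound by PRC2 itself, which is one way in which a domain is known to spread to neighbouring nucleosomes. Phf19 is a Polycomb-like protein that associates with PRC2 and helps to bring it to chromatin. In haematopoietic stem cells (HSCs), the bone marrow cells that give rise to all blood lineages, Polycomb complexes are known to hold differentiation genes silent.

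The regions described here are the autosomal H3K27me3 regions found in the list of 1 Phf19 KO library and in no other list. They were chosen by the called regions themselves. The 4 region lists of the study were merged wherever regions overlapped or touched, and a merged region was kept when it held a region of KO replicate 1 alone or of KO replicate 2 alone. Of 9067 merged autosomal regions, 4321 met this rule, 2528 from KO 1 and 1793 from KO 2. This is 47.7% of all merged regions, and regions of a single control list made up 11.9% (1082 regions, 960 from control 1 and 122 from control 2). Because the rule fixes these counts, they are given as a description with no test.

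The ChIP-seq part of the study compared HSCs from bone marrow of mice with PHF19 KO against HSCs of the floxed control condition (FF), with 2 libraries per genotype. Both genotypes were depleted of lineage-marked cells and labelled for CD150, and both were precipitated with the same polyclonal rabbit antibody against H3K27me3. The driver of the deletion, the age and sex of the animals and any pooling are not given in the labels. Region lists hold no expression, so the sort could not be checked against marker genes here, and no genotype check is possible from these lists.

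The lists differed in length before any comparison was made. KO replicates 1 and 2 held 5922 and 4414 autosomal regions, and control replicates 1 and 2 held 4038 and 891. The width of regions went with the replicate number rather than with genotype: regions lying in merged regions of 2 or more lists (shared regions) had a median width of 2592.5 bp in KO 1 and 2573.5 bp in control 1, against 1611 bp in KO 2 and 1606 bp in control 2. Read depth is unknown for every library, so a region missing from a list can be one that was not detectable at that library's depth. The labels do not tie libraries to separate animals. Each p-value below therefore reflects the spread among 4 libraries, and this may be technical.

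The regions found in 1 KO list were numerous and mostly narrow, and most had low scores within their list. They made up 42.7% of the KO 1 list (95% exact Clopper-Pearson interval 41.4 to 44.0, counting error only) and 40.6% of the KO 2 list (39.2 to 42.1). The same share was 23.8% in control 1 (22.5 to 25.1) and 13.7% in control 2 (11.5 to 16.1). In covered length they were a smaller part, with 2.57 Mb or 21.2% of the bases of the KO 1 list and 1.94 Mb or 29.4% of those of KO 2. Single-list regions held 11.7% of the bases of the control 1 list and 8.99% of those of control 2.

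The KO excess was not seen in lists of equal length. Keeping from every list the 891 regions of highest score, the length of the control 2 list, 245 regions were found in KO 1 alone and 355 in KO 2 alone, against 243 in control 1 alone and 388 in control 2 alone. The KO lists then held 600 such regions and the control lists 631, so the direction of the difference turned. This selection also keeps a smaller, higher-scoring part of the longer lists, so length and stringency move together in it. In shares of the list these were 27.5% and 39.8% for KO 1 and 2 and 27.3% and 43.5% for control 1 and 2. Libraries of the same replicate number now stood closer to each other than libraries of the same genotype. Among the regions at or above the median score of each list, where the lists keep their unequal lengths, 31.0% and 31.7% of the KO lists and 13.6% and 11.2% of the control lists were found in 1 list. Of the 600 KO regions at equal lengths, 92 were also found in 1 KO list alone with the full lists.

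**Figure D1:**
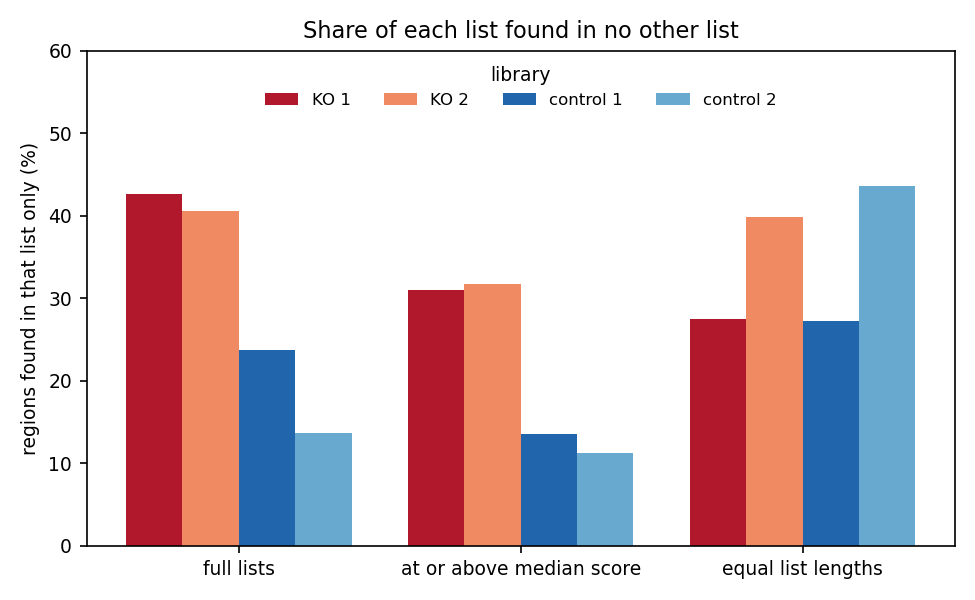
Share of each list (y axis, percent of its regions) found in no other list, for the full lists, for regions at or above each list's median score and for lists of equal length (x axis). Bars are single libraries, with no error bar. With full lists both KO bars (42.7% and 40.6%) stand above both control bars (23.8% and 13.7%), and at equal lengths control 2 is the highest bar at 43.5%.

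Regions found in 1 KO list were narrow. Their median width was 718 bp in KO 1 (quartiles 564 and 1165 bp, range 214 to 6977 bp) and 644 bp in KO 2 (quartiles 542 and 1192 bp, range 337 to 6399 bp). Regions of the same lists that lay in shared regions had quartiles of 1750.5 and 3629.8 bp in KO 1 and 1112 and 2266 bp in KO 2. The upper quartile of the KO 1 regions thus lay below the lower quartile of the shared regions of that list, and in KO 2 the quartile ranges overlapped slightly. Of the 2528 KO 1 regions, 346 were under 500 bp, 1377 measured 500 to 999 bp, 589 measured 1000 to 1999 bp and 216 measured 2000 bp or more. In KO 2 the same classes held 251, 1010, 290 and 242 regions. Narrow regions of the KO lists were seldom seen again elsewhere: of all KO 1 regions under 500 bp, 93.8% were found in KO 1 alone, and of those in KO 2, 89.0%. The same share was 87.6% in control 1 (113 of 129) and 50% in control 2 (11 of 22), so control 1 stood close to KO 2.

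Width rose with the number of lists that held a region. The rule can set part of this, and of the narrowness of single-list regions. A wider region has more room to overlap a region of another list and so to be merged with it. In KO 1 the median was 718 bp for regions in 1 list, 2094.5 bp in 2 lists, 2875 bp in 3 lists and 3355 bp in 4 lists. In KO 2 it was 644, 1611, 1511 and 1836 bp, so there the step lay between 1 list and more than 1. Control 1 had 755, 1946, 2860 and 3236 bp and control 2 had 690.5, 1349.5, 1508 and 1632 bp. The regions of a single control list were therefore about as narrow as those of a single KO list, with medians of 755 and 690.5 bp against 718 and 644 bp.

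This was compared over libraries as the median width of single-list regions divided by that of the regions of the same list lying in shared regions. The ratio was 0.277 in KO 1, 0.400 in KO 2, 0.293 in control 1 and 0.430 in control 2. The KO libraries averaged 0.338 ± 0.0868 and the control libraries 0.362 ± 0.0966 (SD, n = 2 per genotype; two-sided exact permutation p = 0.667, adjusted over 3 measures p = 1). The genotypes overlapped, and the replicate 1 libraries had the lower ratios in both. The smallest p that 2 libraries against 2 can give is 0.333, so no difference of any size could pass the threshold of 0.05. The ratio of KO to control was 0.936, and it turned to 1.20 among regions at or above each list's median score, to 1.13 at equal list lengths, to 1.16 without control replicate 2 and to 1.001 without KO replicate 1.

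The authors' score, given by the peak caller for each region and never below 50 in these lists, was used for ranks within a list. The median score was 58.7 for regions of KO 1 alone and 57.7 for regions of KO 2 alone, against 97.8 and 85.05 for regions of the same lists in shared regions. On a scale where 100 is the highest score of a list, the median rank of the regions found in 1 list was 27.1 in KO 1 and 27.4 in KO 2, against 69.1 and 66.4 for shared regions. In the control lists it was 19.7 and 26.3. The KO libraries averaged 27.2 ± 0.220 and the control libraries 23.0 ± 4.68 (SD, n = 2 per genotype; two-sided exact permutation p = 0.333, the smallest possible, adjusted over 3 measures p = 1). This measure can depend on the share of a list that is found alone, which ranges here from 13.7% to 42.7%, since such regions crowd the low end. The ranks did not follow that share in order: control 2, with 13.7%, stood at 26.3, and control 1, with 23.8%, at 19.7. This dependence was not tested. The order of the libraries was not stable: among regions of 500 bp or more control 2 stood at 29.7, above KO 1 (26.1) and KO 2 (26.5), and the difference was 1.80 rank points in place of 4.23 (exact permutation p = 1). With mean ranks control 2 (32.1) also stood above KO 1 (30.1) and KO 2 (31.7), and the difference was 2.96. At equal list lengths the difference turned to -3.04. It was 7.93 without control replicate 2, 2.61 without KO replicate 2 and 1.54 without KO replicate 1.

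The share found in 1 list alone fell along the score. The rule can set part of this, and of the low ranks of single-list regions. No list holds a score below 50, so a region that falls short of this in another list is missing there. A region just above 50 in 1 list may do so more easily than a high-scoring one. How much of the gradient this makes was not tested. Each list was divided into 10 bins of equal size. In the lowest bin by score, 82.9% of KO 1 regions (490 of 591) and 76.2% of KO 2 regions (337 of 442) were found in that list alone. In the fifth bin the shares were 51.8% and 43.9%. In the highest bin they were 1.01% in KO 1 (6 of 593) and 7.69% in KO 2 (34 of 442). Control 1 ran from 63.4% to 0 of 404 regions, which allows a share of up to 0.743%. That limit is 3 divided by the number of regions, counting error only, and is not an exact interval. Control 2 ran from 34.8% to 3.33% (3 of 90). The 4 lists thus share the direction of this gradient, and the KO lists stand above the control lists in the lower 9 bins.

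By width, the KO lists differed at the wide end, where both replicate 2 libraries turned up. In KO 1 the share found in that list alone fell from 93.7% in the narrowest bin to 5.41% in the widest (32 of 592 regions, all of 4208 bp or more). In KO 2 it fell from 89.3% to 13.6% in the eighth bin and was higher again, at 29.9%, in the widest bin (132 of 442 regions, all of 2869 bp or more). In the narrowest bin the share was 88.1% in control 1 and 65.2% in control 2. Control 2 rose from 0 of 89 in the eighth bin (up to 3.37% by the same approximate limit) to 11.1% in the widest (10 of 90). Control 1 stood at 4.70% in the eighth bin and 6.44% in the widest (26 of 404). This pattern was noticed after the values were seen and was not tested.

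**Figure D2:**
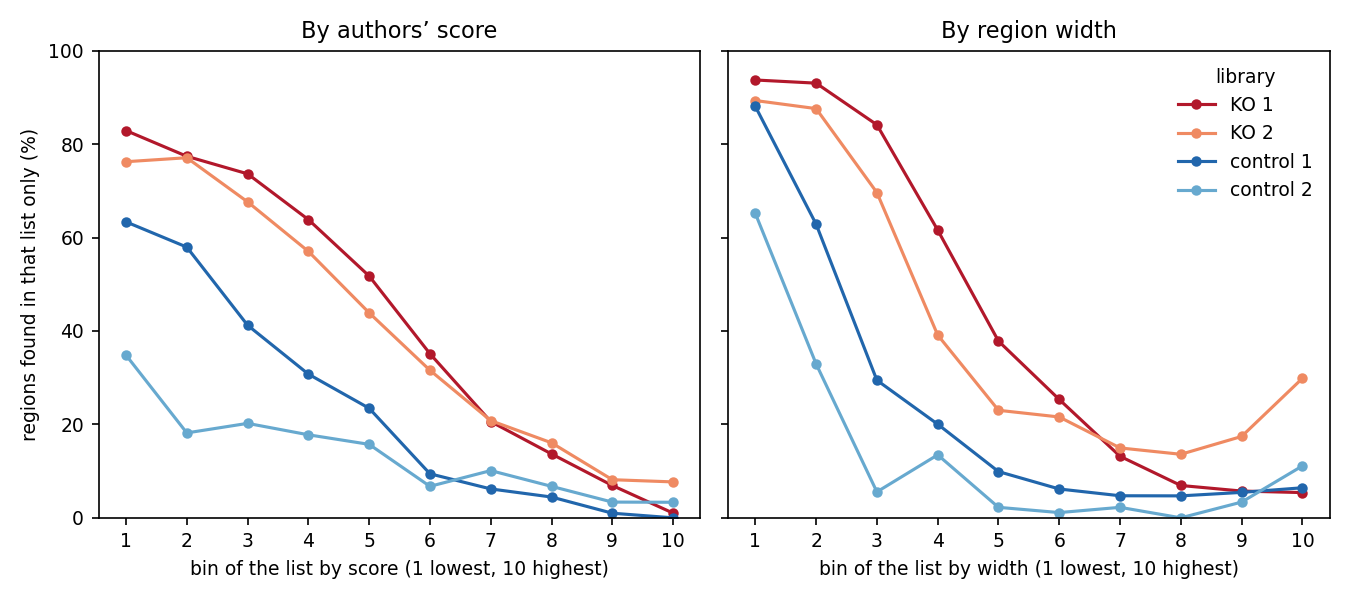
Share of regions found in that list alone (y axis, percent) in 10 bins of equal size of each list, ordered by the authors' score (left) or by width (right); each line is 1 library. By score every line ends below its start, that of KO 1 going from 82.9% to 1.01%. The lines of KO 2 and control 2 rise between some neighbouring score bins. By width the lines of KO 2 and control 2 turn up in the widest bin, to 29.9% and 11.1%.

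Among the regions found in 1 KO list, width and score went together loosely. Across the regions of KO 1 alone, Spearman's rho of width with score was 0.401 (n = 2528) and across those of KO 2 alone 0.388 (n = 1793), a description over regions that share a library and a caller. The 216 KO 1 regions of 2000 bp or more had a median score of 70.3 and a median rank of 46.4, and the 242 of KO 2 had 72.6 and 53.5. These wide regions held 25.7% of the bases of all KO 1 regions found alone and 39.9% of those of KO 2. They made up 8.54% of the KO 1 regions and 13.5% of the KO 2 regions found alone, and 12.9% and 10.7% in control 1 and 2.

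**Figure D3:**
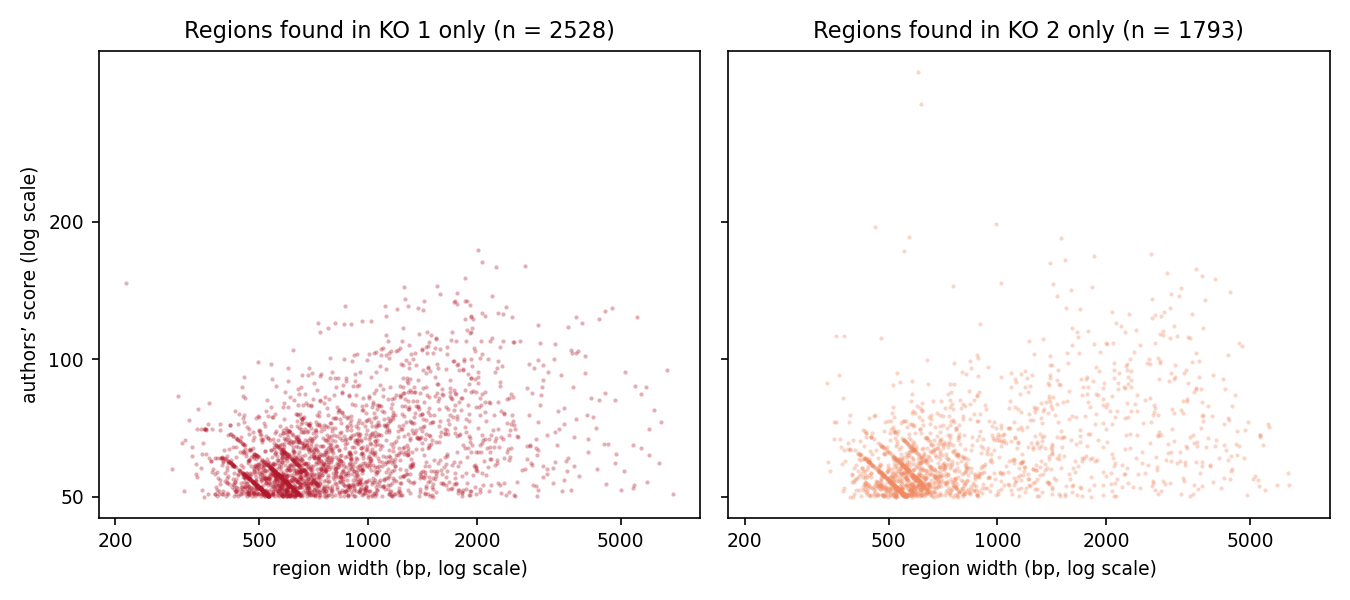
Width (x axis, bp, log scale) against the authors' score (y axis, log scale) of each region found in KO 1 alone (left, 2528 points) and in KO 2 alone (right, 1793 points). Most points crowd at 500 to 1000 bp just above the lowest score of 50, and 2 narrow KO 2 regions stand apart at scores of 362 and 426.

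The highest-scoring regions differed in shape between the KO lists. All coordinates are mm9 as deposited, counted from 1. In KO 1 the highest were chr2:73612486-73614499 with a score of 173, chr7:29477698-29479760 with 164, chr2:67402904-67405613 with 160, chr16:63862995-63865254 with 159.5 and chr12:70890709-70892566 with 150. They spanned 1858 to 2710 bp, and the first stood at place 295 of the 5922 regions of its list. In KO 2 the highest were chr17:16286717-16287320 with a score of 426, chr1:81371833-81372446 with 362, chr10:12408540-12409532 with 198, chr9:96417060-96417518 with 195 and chr14:108257514-108258082 with 185. These spanned 459 to 993 bp, and the first held place 13 of the 4414 regions of KO 2. So the strongest KO 2 regions seen in no other list were narrower than the strongest of KO 1, and they stood nearer the top of their list. A score of 100 or more was reached by 124 regions of KO 1 alone (4.91%) and 80 of KO 2 alone (4.46%), and by 23 of control 1 alone (2.40%) and 3 of control 2 alone (2.46%). These shares cannot be compared between lists, since the scores are not known to be on a common scale. The median score of shared regions was 97.8 in KO 1, 85.05 in KO 2, 90.1 in control 1 and 63.6 in control 2.

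The widest regions of KO 1 alone were chr4:22412786-22419762 (6977 bp), chr2:70309684-70316411 (6728 bp), chr5:31393006-31399465 (6460 bp), chr12:96929060-96935437 (6378 bp) and chr17:35619950-35626141 (6192 bp). Their scores were 50.65, 94.95, 72.75, 59.2 and 77.4, so the widest of all lay near the end of its list, at place 5758. In KO 2 the widest were chr16:18581050-18587448 (6399 bp), chr14:33273316-33279693 (6378 bp), chr3:128916273-128922204 (5932 bp), chr5:144129416-144135063 (5648 bp) and chr8:90481556-90487145 (5590 bp), with scores of 52.9, 56.2, 53.0, 71.1 and 72.2. None of these 10 regions came within 7 kb of a region of another list.

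Whether a region extends a domain seen in other libraries or stands alone was measured as the gap to the nearest shared region. The rule sets part of the answer, because a KO region that overlaps or touches a region of another list is merged into a shared region and cannot be a member. Among the regions left by the rule, 42 of 2528 KO 1 regions (1.66%, exact interval 1.20 to 2.24) and 35 of 1793 KO 2 regions (1.95%, 1.36 to 2.70) lay within 5 kb of a shared region. The median gap was 141388 bp in KO 1 and 132685 bp in KO 2. In control 1 the share within 5 kb was 1.56% (15 of 960) and in control 2 it was 5.74% (7 of 122, interval 2.34 to 11.5). The KO libraries averaged 1.81% ± 0.206 and the control libraries 3.65% ± 2.95 (SD, n = 2 per genotype; two-sided exact permutation p = 1, adjusted over 3 measures p = 1). The difference of -1.84 percentage points rested on control 2, and without that library it was 0.110.

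The sequence within 5 kb of a shared region, outside the shared regions themselves, makes up 1.46% of the autosomal span of 2467.0 Mb, which includes unmappable sequence. The KO 1 and KO 2 shares within 5 kb were close to that value and to control 1, so they are no result about the KO lists. Shared regions had another shared region within 5 kb in 3.03% of cases (111 of 3664). At 50 kb the picture was different. There 23.7% of KO 1 regions and 29.1% of KO 2 regions had a shared region, against 26.5% in control 1, 23.8% in control 2, 12.5% of the span and 29.5% of the shared regions. The KO to control difference, of the opposite sign to that at 5 kb, was 1.28 points (exact permutation p = 1). Within 1 Mb it was 94.4% and 94.7%, against 78.7% of the span. Regions of single KO and single control lists alike thus lay above the share of sequence at 50 kb and at or below that of shared regions. No test was made against the span, since the same lists set both positions.

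**Figure D4:**
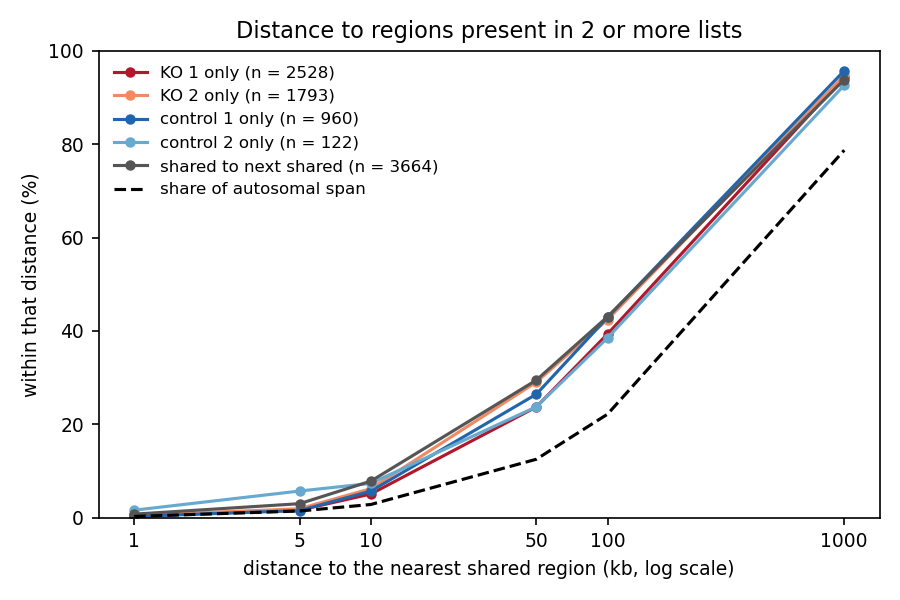
Percent of regions (y axis) with a shared region within a given distance (x axis, kb, log scale) for the regions found in each list alone, for shared regions measured to the next shared region, and for the autosomal span (dashed). The lines of the regions lie close together and above the dashed line from 10 kb on, with 23.7% and 29.1% of the KO 1 and KO 2 regions and 12.5% of the span at 50 kb.

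Width was also set beside the gap. In KO 1 the median width was 1314 bp for the 9 regions within 1 kb, 1432 bp for the 33 regions at 1 to 5 kb, 856.5 bp for the 558 at 5 to 50 kb, 698 bp for the 1503 at 50 to 500 kb and 641 bp for the 425 beyond. In KO 2 it was 724 bp for 9 regions, 1334.5 bp for 26, 738.5 bp for 486, 627 bp for 978 and 589 bp for 294. The KO 2 regions within 1 kb were thus no wider than those at 5 to 50 kb, while in both KO lists the medians fell from 1 to 5 kb outward. Control 1 had 1814.5 bp at 1 to 5 kb (12 regions) and 631 bp beyond 500 kb (131 regions), and control 2 had 1195 bp (5 regions) and 710.5 bp (24 regions). A region between shared regions, with one within 5 kb on either side, occurred 1 time in KO 1 and 1 time in KO 2. At 50 kb this held for 69 KO 1 regions (2.73%) and 68 KO 2 regions (3.79%).

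The nearest shared region was held by as many lists, in about the same proportions, as shared regions at large. It was held by 2 lists for 46.0% of KO 1 regions and 48.2% of KO 2 regions, by 3 lists for 42.6% and 40.9%, and by all 4 lists for 11.4% and 10.9%. Among all 3664 shared regions these shares are 45.7%, 41.0% and 13.2%. For 93.6% of KO 1 regions the nearest shared region was itself present in KO 1, which holds 92.2% of all shared regions, and for KO 2 it was 73.2%, with 70.6% of shared regions in that list.

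The regions farthest from any shared region were small. In KO 1 they were chr7:46742543-46742937, chr1:142141981-142142476 and chr10:98377958-98379026, with gaps of 3986620, 3898334 and 3497411 bp and widths of 395, 496 and 1069 bp. In KO 2 they were chr1:114312723-114313482, chr5:59070493-59071006 and chr5:58771467-58771945, with gaps of 6242562, 4967948 and 4910896 bp and widths of 760, 514 and 479 bp. Their scores ran from 50.6 to 72.8.

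At the edge of the rule, a few bases decided membership. The KO 2 region chr17:83625693-83626302 (610 bp, score 78.4) and the KO 1 region chr17:83626308-83626865 (558 bp, score 54.95) lie 5 bp apart and count as 1 member of each list. The KO 1 regions chr11:20731165-20732163 and chr4:43887416-43888573 lay 7 and 26 bp from a control 1 region. In KO 2, chr11:80931337-80931972 lay 5 bp from a control 1 region and chr7:36157191-36157795 lay 67 bp from a KO 1 region. Just outside the rule, the KO 1 region chr16:60605250-60605725 and the KO 2 region chr16:60604708-60605295 shared 46 bp, and the KO 1 regions chr19:38910907-38911360 and chr8:32026806-32027553 shared 12 and 23 bp with control 1. The KO 2 regions chr3:52846891-52847723 and chr15:25552310-25552985 shared 113 and 172 bp. Such cases were few: merging regions within 1000 bp left 4245 regions of 1 KO list, and merging within 5000 bp left 4093.

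The gap between regions of single lists was measured in the same way. Of the KO 1 regions, 34 (1.34%) lay within 5 kb of a region found in KO 2 alone, and of the KO 2 regions, 34 (1.90%) lay within 5 kb of one found in KO 1 alone. Regions of control 1 alone gave similar shares, with 2.40% within 5 kb of a region of KO 1 alone and 1.56% within 5 kb of one of KO 2 alone. Within 50 kb the KO 1 to KO 2 and KO 2 to KO 1 counts were 345 (13.6%) and 344 (19.2%), and control 1 regions gave 18.0% to KO 1 and 13.6% to KO 2. The median gap of a KO 1 region was 189835.5 bp to the next region of KO 1 alone and 334429.5 bp to one of KO 2 alone. For a KO 2 region it was 248203 bp to its own list and 194361 bp to KO 1, so from either list the gap was shorter to the more numerous KO 1 regions. In KO 1, 96.2% had no other region of KO 1 alone within 10 kb, in KO 2 the share was 94.5%, and the longest chain at that spacing held 3 regions in either list. At a spacing of 50 kb the longest chain held 4.

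All 19 autosomes carried regions of both KO lists alone. The density of KO 1 regions was 0.744 per Mb of span on chromosome 16, the lowest, and 1.56 on chromosome 11, the highest, with a median of 0.967. KO 2 had its lowest and highest density on the same chromosomes, with 0.377 and 1.22 per Mb and a median of 0.704. Shared regions were also least dense on chromosome 16 (0.988 per Mb) and most dense on chromosome 11 (2.43). Across the 19 chromosomes, density of KO 1 regions went with that of shared regions with Pearson's r = 0.806 and Spearman's rho = 0.791, and for KO 2 regions these were 0.870 and 0.877. Regions of control 1 alone gave 0.803 and 0.754. These values describe chromosomes that differ in gene content and mappability and that enter every list, and they carry no test.

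As a share of all merged regions of a chromosome, the regions found in 1 KO list ran from 41.7% on chromosome 19 (105 of 252) to 52.2% on chromosome 6 (273 of 523). The balance between the KO lists varied among chromosomes. Chromosome 7 held 162 regions of KO 1 and 154 of KO 2, a ratio of 1.05, whereas chromosome 17 held 136 and 65, a ratio of 2.09, and chromosome 16 held 73 and 37, a ratio of 1.97.

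**Figure D5:**
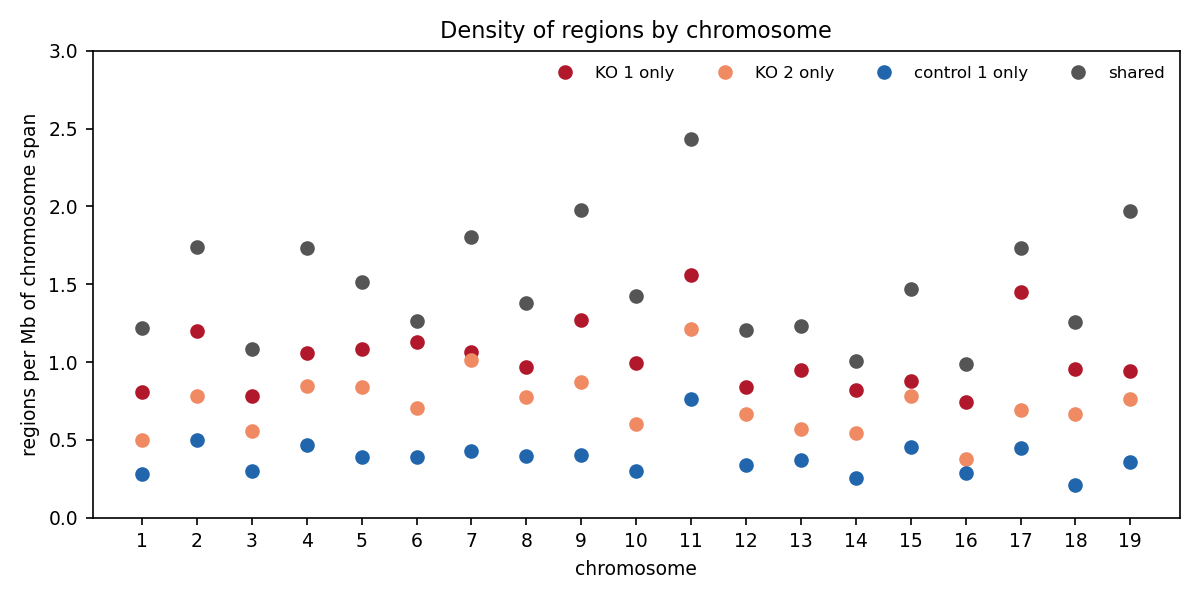
Regions per Mb of chromosome span (y axis) on each autosome (x axis), for regions found in KO 1, KO 2 or control 1 alone and for shared regions; each point is 1 chromosome. Chromosome 11 is the highest in each set (1.56, 1.22, 0.764 and 2.43 per Mb), and KO 1 stands far above KO 2 on chromosome 17 (1.45 against 0.694).

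At a finer scale, the autosomal span was divided into 2478 windows of 1 Mb. At least 1 region of a single KO list lay in 1581 of them (63.8%), with a median of 2 in such windows and at most 12. Windows with KO 1 regions numbered 1283 and windows with KO 2 regions 1032, and 734 held both, which is 57.2% of the former and 71.1% of the latter. These shares stand beside 1032 of all 2478 windows with a KO 2 region and 1283 of 2478 with a KO 1 region. Whether the overlap exceeds what the uneven spread of all regions gives was not tested. Of the 4321 regions, 3593 (83.2%) lay in windows that also held a shared region, and 60.8% of all windows did. 5 or more regions were found in 250 windows and 10 or more in 14.

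The fullest windows drew on the KO lists unevenly. The window from 24000001 to 25000000 on chromosome 17 held 12 regions, of which 11 came from KO 1 and 1 from KO 2. The window from 102000001 to 103000000 on chromosome 15 also held 12, with 3 from KO 1 and 9 from KO 2, and that from 102000001 to 103000000 on chromosome 11 held 5 and 7 beside 11 shared regions. Windows with 11 regions lay on chromosome 4 from 124000001 (3 and 8) and on chromosome 5 from 148000001 (6 and 5), among others of that count. In these 5 windows regions of a single control list numbered 0 to 2. The windows were picked for their KO regions, and regions of a single control list were fewer in all (1082 against 4321). The low control counts are therefore no result about these windows.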

How the data were processed

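H3K27me3 ChIP-seq of 2 control and 2 KO libraries was used. The submitters' processing notes name mm9, dm3, Bowtie and TopHat with no role, and region names in the style of MACS stand in the lists. Aligner version, caller version, threshold, control library and depth were not given in the sources used here. The score of each region was deposited by the authors, never below 50, and was ranked within a list only.

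Lists were merged with Python 3.11.15 and numpy 2.4.6 (overlap of 1 bp or touching), leaving out chromosomes X, Y and M, and compared over libraries by exact permutation tests. Groups came from sample titles. Chromosome span is the highest region end. Class and distance code was tested on simulated lists. Named were, per KO list, the 5 highest-scoring, 5 widest, 3 nearest to another list and 3 farthest regions, and the 5 fullest windows. The regions and rules were chosen with earlier results of these data known. No genes or sequences are given, since the reference tables belong to another build. Alternatives were stricter or equal-length lists, merging distance, minimum width, required cover, sex chromosomes, near distance, means, replicates left out and a replicate block. MARS-Seq plates were not used here.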

Additional observations from a re-analysis of the deposited data

Results flagged for a closer look

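The X chromosome lies outside the rule, and it held more regions of single KO lists than of single control lists. On X, 51 regions were found in KO 1 alone and 148 in KO 2 alone, against 13 in control 1 alone and 10 in control 2 alone. These were 48.6% of the 105 X regions of KO 1, 77.9% of the 190 of KO 2, 28.9% of the 45 of control 1 and 47.6% of the 21 of control 2. By share, KO 1 was thus level with control 2. The autosomal shares were 42.7%, 40.6%, 23.8% and 13.7% in the same order. The lists also differ in their autosomal length, and the part of list length in these numbers was not tested.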

How the results depend on the processing

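Of 52 alternatives for the 4 main results, 41 kept the direction of the difference or, for the number of regions, stayed within 1.5 times. The number of regions found in 1 KO list alone, 4321, was 1616 at or above the median score, 600 at equal list lengths, 2246 to 5480 without a replicate, and 6824 with the replicate block, which compares KO and control lists of one number. The near-share difference was 1.28 points at 50000 bp, -0.878 at 10000 bp, -0.547 at 1000 bp, -3.61 at or above the median score and -2.24 to 0.110 without a replicate (0.110 without control replicate 2). It was not computed with merging within 5000 bp, which leaves nothing near by construction. The width ratio was 1.20 at or above the median score, 1.13 at equal list lengths, and without a replicate 0.756 to 1.16 (1.001 without KO replicate 1, 1.16 without control replicate 2). The rank difference was 1.54 to 7.93 without a replicate, 1.80 among regions of 500 bp or more, 2.81 at or above the median score and -3.04 at equal list lengths. With the replicate block the near-share and rank differences were -1.84 and 4.23, equal to the plain ones by construction. Both are nonetheless counted among the 41. The width ratio with the replicate block was 0.937. Deviations of same-numbered libraries correlated at 0.0806 over 9067 regions, and 2 pairs do not show that the numbers pair the samples. Causes were not tested. Read depth is unknown and limits every statement on absence.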

Other observations

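Some wide regions of KO 2 alone lay near each other. Of the 242 KO 2 regions of 2000 bp or more, 46 (19.0%) had another of them within 50 kb. The counts were 11 of 216 in KO 1 (5.09%), 4 of 124 in control 1 (3.23%) and 2 of 13 in control 2 (15.4%), so both replicate 2 lists had the higher shares, that of control 2 from few regions. A shared region lay within 50 kb of 38.4% of the wide KO 2 regions and 34.7% of the wide KO 1 regions. For the wide regions of control 1 alone it was 33.9%, and for those of control 2 alone 61.5% (8 of 13). This grouping was noticed after the values were seen and was not tested.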
